A study of Mus musculus with 4 samples.

Results

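Epcam, Cdh1, the keratin genes Krt7, Krt8, Krt18 and Krt19, and the claudin genes Cldn3, Cldn4 and Cldn7 were followed as markers of epithelial identity in sorted mouse lung tumour cells. They were taken by symbol from the authors' table, which held all 9 of them among its 17746 gene symbols. All 9 had counts in each of the 4 libraries and passed the filter on low counts. The mice carried Rb1 fl/fl and Trp53 fl/fl alleles, which give tumours resembling small cell lung cancer, and a GFP-LC3-RFP-LC3ΔG knock-in that reports autophagic flux. Live cells positive for EpCAM and RFP were sorted by their GFP signal, which gave 2 GFP-positive and 2 GFP-negative libraries from tumour tissue of these animals. All groups thus share the genotype, the reporter and the selection for EpCAM. The mice's age, the Cre used and the number of animals behind a library are not stated in the labels. Titles of the samples and the design text of the series disagree on which sorted group had high flux, so groups are named by their GFP status. Changes are given as GFP-negative relative to GFP-positive.

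Epithelial cells are held together by junctions and stiffened by keratin filaments. EpCAM is a surface glycoprotein of epithelia that associates with claudin-7, and antibodies to it are widely used to sort carcinoma cells. E-cadherin, the product of Cdh1, joins neighbouring cells at adherens junctions, and claudins form the strands of tight junctions that seal the space between cells. Keratins assemble as obligate pairs of a type II chain (here keratins 7 and 8) with a type I chain (here keratins 18 and 19), the set typical of simple, single-layered epithelia such as that of the lung. Transcription factors of the SNAI and ZEB families repress Cdh1 and other epithelial genes through E-box sequences of the form CACCTG.

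The libraries did not form 2 tight groups. They held 51994432 to 73997175 counts, and counts were found for 6063 gene symbols in GFP-positive replicate 1 against 15710 to 17617 in the other 3. A gene with low or no counts in GFP-positive replicate 1 is therefore common in these data. Medians of the gene lists are given with and without it, as are the changes of members that moved with it. The labels do not tie libraries to animals, so p-values measure only the spread between these libraries, which may be technical. In bulk RNA, fewer cells of a type and less RNA per cell cannot be told apart.

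Several members are neighbours in the genome (mm10, GENCODE M21). Krt8 (chromosome 15, 101996698 to 102004482, minus strand) and Krt18 (102028180 to 102032027, plus strand) lie 23697 bases apart and point away from each other, and Krt7 lies 566384 bases from Krt8. Cldn4 (chromosome 5, 134945119 to 134946934, minus strand) and Cldn3 (134986214 to 134987472, plus strand) are likewise divergent neighbours, 39279 bases apart. Epcam lies on chromosome 17 (87635979 to 87651129), Cdh1 on chromosome 8 (106603351 to 106670246), and Cldn7 (69964779 to 69967885) and Krt19 (100140810 to 100148665) on chromosome 11. The 250 bases before the start of Epcam, the sort marker, and of these neighbouring genes are printed from RefSeq (GRCm38.p6), 5′ to 3′ on the strand of the gene. RefSeq starts are used, and those of Krt8 and Krt18 lie 140 and 36 bases inside the GENCODE genes given above, so these windows reach into them. Capitals mark CACCTG or its reverse complement CAGGTG.
Epcam, chr17:87635729-87635978, plus strand: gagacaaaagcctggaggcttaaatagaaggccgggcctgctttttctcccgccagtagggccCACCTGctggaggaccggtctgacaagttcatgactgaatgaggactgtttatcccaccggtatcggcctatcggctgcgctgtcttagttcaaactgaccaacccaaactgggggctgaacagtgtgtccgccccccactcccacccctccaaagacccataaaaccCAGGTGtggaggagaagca
Krt8, chr15:102004343-102004592, minus strand: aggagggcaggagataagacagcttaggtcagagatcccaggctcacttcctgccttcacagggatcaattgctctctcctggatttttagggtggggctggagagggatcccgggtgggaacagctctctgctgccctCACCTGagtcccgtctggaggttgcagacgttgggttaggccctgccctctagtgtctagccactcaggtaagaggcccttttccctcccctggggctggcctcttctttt
Krt18, chr15:102027966-102028215, plus strand: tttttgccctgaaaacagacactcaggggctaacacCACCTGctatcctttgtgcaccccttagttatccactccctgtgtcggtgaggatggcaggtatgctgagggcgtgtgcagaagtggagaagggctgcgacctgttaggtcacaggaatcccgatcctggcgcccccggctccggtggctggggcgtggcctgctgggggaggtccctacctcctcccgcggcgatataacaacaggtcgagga
Cldn4, chr5:134946935-134947184, minus strand: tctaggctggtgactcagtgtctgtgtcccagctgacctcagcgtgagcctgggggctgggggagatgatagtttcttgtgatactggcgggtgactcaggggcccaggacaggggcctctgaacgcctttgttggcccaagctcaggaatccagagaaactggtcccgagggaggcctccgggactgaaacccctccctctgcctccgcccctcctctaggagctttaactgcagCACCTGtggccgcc
Cldn3, chr5:134985964-134986213, plus strand: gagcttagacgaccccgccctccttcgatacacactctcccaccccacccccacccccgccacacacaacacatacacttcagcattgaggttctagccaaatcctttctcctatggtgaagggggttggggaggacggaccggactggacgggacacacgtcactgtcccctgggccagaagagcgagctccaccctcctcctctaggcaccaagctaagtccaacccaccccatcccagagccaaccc
RefSeq starts were at hand for 7 of the 9 genes, and 6 of those 7 carried the motif before at least 1 listed start: Epcam, Krt7, Krt8, Krt18, Cldn4 and Cldn7. Counted in the same way, 19.4% of 27025 genes carried it. Epcam carried it at 187 and 19 bases before its start, Cldn4 at 14, Krt7 at 44, Krt8 at 111 and Krt18 at 214. Cldn3 carried none in this window. The RefSeq start of Krt7 lies 1360 bases inside its GENCODE gene. The Cldn7 start with the motif lies 642 bases inside its gene, and the Cldn7 start at the GENCODE gene's own start carried none. A match describes the letters and does not show that a factor binds there.

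Epcam messenger RNA was present in every library. It was measured at 3527 and 4199 counts in GFP-positive replicates 1 and 2 and at 28986 and 5916 counts in GFP-negative replicates 1 and 2. Scaled for library size and composition (CPM, counts scaled to a common library size with TMM factors), these were 94.0 and 65.9 CPM against 255 and 88.9 CPM. GFP-negative replicate 1 stood apart, while the remaining 3 libraries lay close together and the groups overlapped. The fitted log2 change was 1.11 ± 2.45 (SE, n = 2 per group), with edgeR adjusted p = 1.0. Without GFP-negative replicate 1 it was 0.15. On FPKM, which scales by gene length and library total, Epcam stood at 27.7 and 24.3 against 157 and 33.6, and there the groups did not overlap.

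The type II keratin genes differed in which library stood apart. Krt8 was measured at 540 and 113 CPM among GFP-positive libraries, and at 1406 and 217 CPM among GFP-negative ones. The groups overlapped, since GFP-positive replicate 1 exceeded GFP-negative replicate 2. Its fitted log2 change was 1.31 ± 1.46 (edgeR adjusted p = 1.0), 2.84 without GFP-positive replicate 1 and -0.59 without GFP-negative replicate 1. Krt7, whose product also pairs with the type I chains, was measured at 668 and 102 CPM against 499 and 443 CPM. Here GFP-positive replicate 2 was the library that stood apart, below the other 3. The fitted log2 change of Krt7 was 0.29 ± 1.58 (edgeR adjusted p = 1.0), and its sign turned to -0.51 without GFP-positive replicate 2, whereas it was 2.198 without GFP-positive replicate 1.

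The type I keratin genes behaved unlike each other. Krt18 was measured at 369 and 127 CPM among GFP-positive libraries, and at 821 and 327 CPM among GFP-negative ones, a log2 change of 1.21 ± 1.63 (edgeR adjusted p = 1.0). Its log2 change was 2.17 without GFP-positive replicate 1 and 0.40 without GFP-negative replicate 1. The order of its libraries was that of Epcam and of Krt8. Krt19 was the steadiest member, at 139 and 81.0 CPM against 68.4 and 94.5 CPM, and its highest library exceeded its lowest by 2.03 times. Its log2 change was -0.43 ± 2.68 with TMM scaling, 0.15 with library totals and 0.0039 without GFP-positive replicate 1. The SE of a gene comes from a spread shared across genes, so the wide error of Krt19 does not describe its own 4 values. On FPKM Krt19 stood at 48.3 and 35.4 against 49.9 and 42.4.

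**Figure D1:**
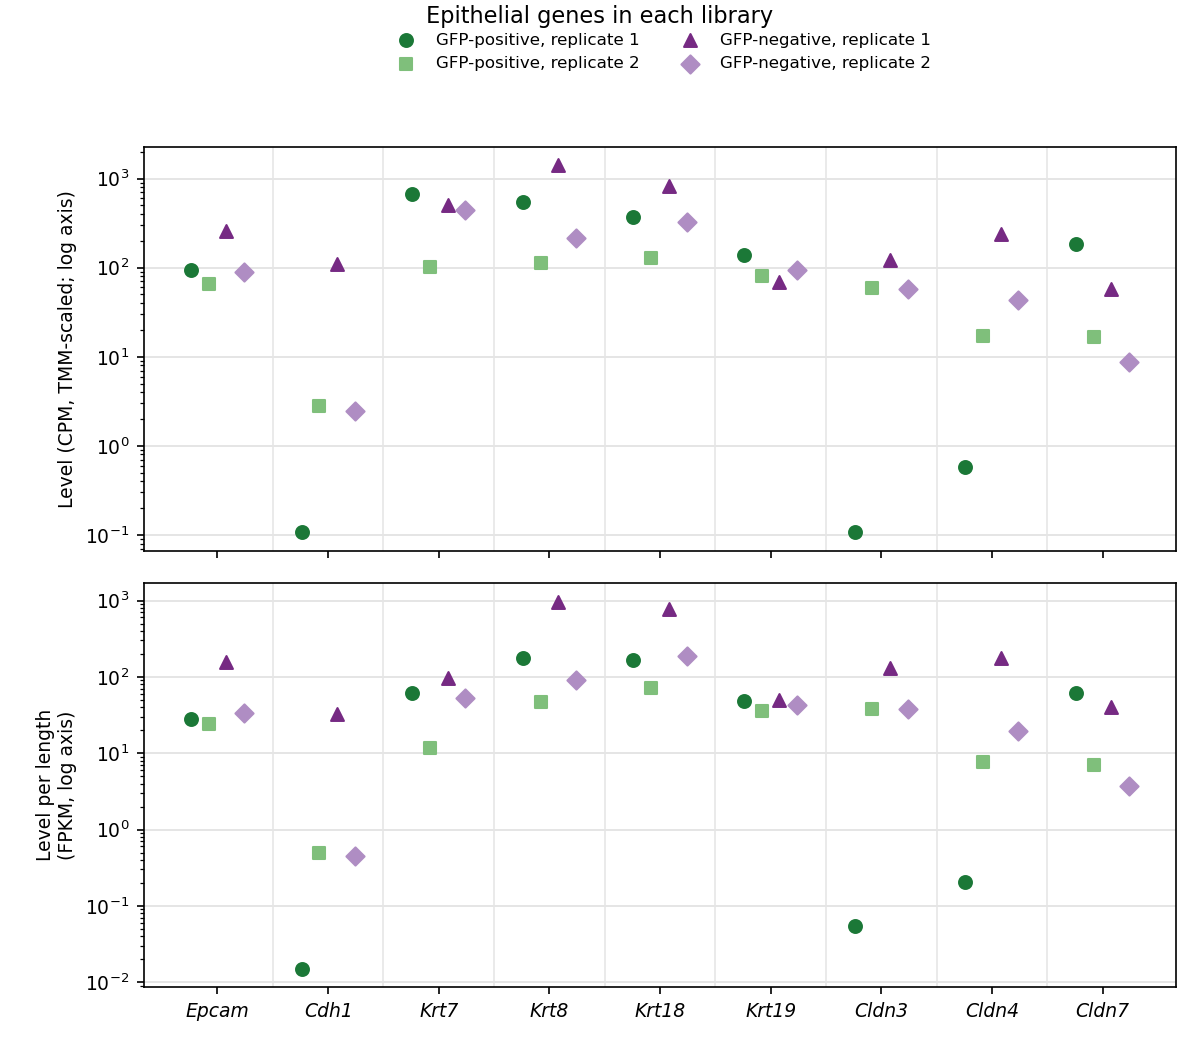
Levels of the 9 genes in the 4 libraries, as TMM-scaled CPM (upper panel) and as the authors' FPKM (lower panel), both on log axes, 1 point per library. GFP-negative replicate 1 gave the highest CPM for 6 of the 9 genes and the highest FPKM for 8, and Cdh1, Cldn3 and Cldn4 stood at 0.11, 0.11 and 0.59 CPM in GFP-positive replicate 1.

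The claudin genes Cldn3 and Cldn4 had very low counts in 1 library. Cldn3 was measured at 4 and 3810 counts in the GFP-positive and at 13851 and 3804 counts in the GFP-negative libraries, or 0.11 and 59.8 CPM against 122 and 57.1 CPM. GFP-positive replicate 2 and GFP-negative replicate 2 were thus nearly equal, and the low value was that of GFP-positive replicate 1. The log2 change was 1.58 ± 3.30 (edgeR adjusted p = 1.0), or 0.58 once GFP-positive replicate 1 was left out. Cldn4 was measured at 22 and 1095 counts against 27002 and 2861 counts, or 0.59 and 17.2 CPM against 238 and 43.0 CPM. It was the one member whose groups did not overlap on TMM-scaled CPM, with both GFP-negative libraries higher. Its log2 change was 3.98 ± 3.33 (edgeR adjusted p = 1.0), or 3.02 once GFP-positive replicate 1 was left out.

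Cldn7, whose protein binds EpCAM, had its highest value in a GFP-positive library. It was measured at 186 and 16.7 CPM among GFP-positive libraries, and at 57.6 and 8.64 CPM among GFP-negative ones. That highest value was in GFP-positive replicate 1, the library in which Cldn3 had 4 counts and Cldn4 had 22. Its log2 change was -1.61 ± 3.15 (edgeR adjusted p = 1.0), or 0.98 once GFP-positive replicate 1 was left out. Within GFP-positive replicate 1, Cldn7 made up 99.6% of the summed FPKM of the 3 claudins, against 13.0% in GFP-positive replicate 2 and 11.5% and 6.03% in the GFP-negative libraries.

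Cdh1 was low in all but 1 library. It was measured at 4 and 180 counts in the GFP-positive and at 12632 and 166 counts in the GFP-negative libraries, or 0.11 and 2.82 CPM against 111 and 2.49 CPM. GFP-negative replicate 1 stood far above the other 3, and GFP-positive replicate 2 and GFP-negative replicate 2 were nearly equal. The fitted log2 change of Cdh1 was 5.28 ± 4.80 (edgeR adjusted p = 1.0), or 0.76 without GFP-negative replicate 1. Per length, Cdh1 had 0.21 times the FPKM of Epcam in GFP-negative replicate 1, but 0.021 and 0.013 times in GFP-positive replicate 2 and GFP-negative replicate 2, and 0.00054 times in GFP-positive replicate 1. EpCAM-sorted cells were therefore measured with Epcam messenger RNA throughout and with Cdh1 messenger RNA above 3 CPM in a single library.

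None of the 9 genes passed the test between the groups. With the quasi-likelihood test of edgeR, adjusted by Benjamini-Hochberg over 16301 genes, 0 of 9 were called, where 0.0982% of all genes tested were called. At an unadjusted p under 0.05 there were also 0 of 9, against 3.1% of all genes, and DESeq2 and limma on FPKM called 0 of 9 too. The fitted change was above 0 for 7 members and below 0 for Krt19 and Cldn7, where 68.1% of all genes tested lay above 0. The SE exceeded the change for 7 of the 9. These signs depend on the scaling: upper quartile scaling put Epcam, Krt7, Krt8 and Krt18 below 0, and library totals put Krt19 above 0. The median of the 9 was 1.21, beside 0.91 for all genes tested, and in a fit of the 5492 genes with counts in all 4 libraries it was 1.33 beside -0.06. The members' median lay below that of all genes under other settings, at 1.16 beside 3.92 with the replicate block and 0.20 beside 0.40 without GFP-negative replicate 1. It was 0.64 beside 9.95 without GFP-positive replicate 2, -5.37 beside 0.43 with upper quartile scaling, and 1.71 beside 1.76 for limma on FPKM with a pseudocount of 0.1. On TMM-scaled CPM both GFP-negative libraries lay above both GFP-positive ones for 1 of 9 members (Cldn4), and 0 of 9 lay below. Of all genes 25.2% lay above in this way and 6.63% below. The share above was 13.2% among genes with counts in all 4 libraries. On the authors' FPKM 3 of 9 members lay above (Epcam, Krt18 and Cldn4), against 31.6% of all genes and 21% of those with counts in all 4 libraries. Without GFP-positive replicate 2, edgeR called Cdh1, Cldn3 and Cldn4 higher (adjusted p = 0.0218, 0.0128 and 0.0222), in a fit that called 42.7% of all genes higher. In that fit the GFP-positive arm is replicate 1 alone, with 4, 4 and 22 counts for these genes, and it is assumed to vary like the GFP-negative libraries. The other alternatives gave adjusted p from 0.597 to 1.0 for Cdh1 and from 0.807 to 1.0 for Cldn3 and Cldn4.

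**Figure D2:**
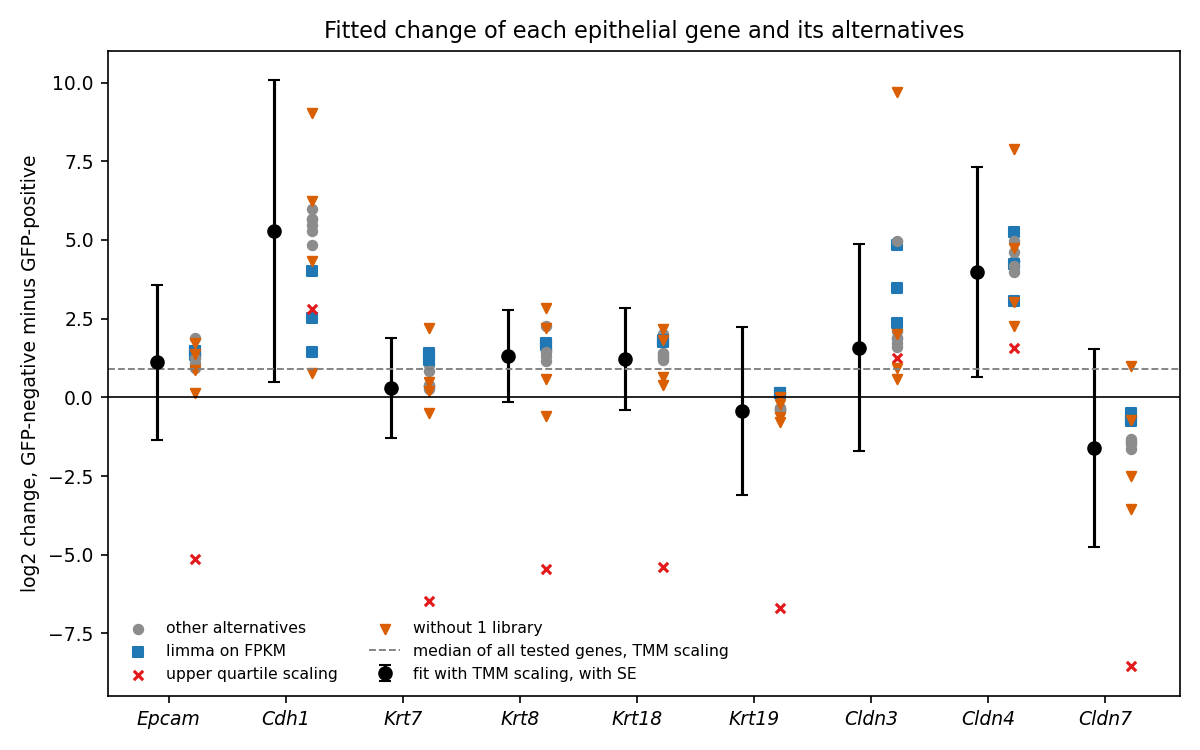
Fitted log2 change of each gene, GFP-negative minus GFP-positive, with TMM scaling (black, bars are the SE from edgeR, n = 2 per group) and under each alternative (coloured marks). The black points run from -1.61 for Cldn7 to 5.28 for Cdh1, and upper quartile scaling, marked with crosses, moved 4 members from above 0 to below it.

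Levels of different genes were compared per length, as FPKM. Krt8 and Krt18 were the members with the highest FPKM in all 4 libraries, and Cdh1 was the lowest in all 4. In GFP-negative replicate 1, Krt8 reached 971 FPKM and Krt18 772 FPKM, ranks 24 and 37 of all genes. In the other libraries Krt18 reached 166 and 71.6 FPKM (GFP-positive) and 189 FPKM (GFP-negative replicate 2), ranks 400, 888 and 432. The order of the members below these keratins differed from library to library, with Cldn7 at 61.7 FPKM in GFP-positive replicate 1 and Cldn3 at 38.5 FPKM in GFP-positive replicate 2 in the third place. Cldn4 held it at 177 FPKM in GFP-negative replicate 1 and Krt7 at 52.2 FPKM in GFP-negative replicate 2. FPKM of Krt7 uses an exon union of 7049 bases, and taking its longest coding transcript of 4094 bases would raise its level by 1.72 times. Together the 9 genes held 0.144% and 0.0552% of all counts among GFP-positive libraries, against 0.549% and 0.122% among GFP-negative ones.

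Ratios between members do not depend on how a library is scaled. The summed FPKM of the type II genes Krt7 and Krt8 was 1.12 and 0.546 times that of the type I genes Krt18 and Krt19 in the GFP-positive and 1.30 and 0.624 times in the GFP-negative libraries. These sums were thus within a factor of 2 of each other in every library, while Krt8 alone ranged from 46.7 to 971 FPKM. The ratio of Krt8 to Krt18 was 1.07 and 0.652 against 1.26 and 0.488. Neither ratio separated the groups. The ratio of Krt19 to Krt18 was 0.291 and 0.494 in the GFP-positive and 0.0646 and 0.224 in the GFP-negative libraries, lower in both of the latter. Krt19 ran only from 35.4 to 49.9 FPKM, so this ratio largely repeats Krt18. The FPKM of Krt18 lay higher in both GFP-negative libraries, as for 31.6% of all genes and 21% of those with counts in all 4 libraries. For the neighbouring claudins, the ratio of Cldn3 to Cldn4 was 0.263 and 5.02 against 0.74 and 1.92. The ratio of Cldn7 to Epcam was 2.23 and 0.285 against 0.254 and 0.109.

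**Figure D3:**
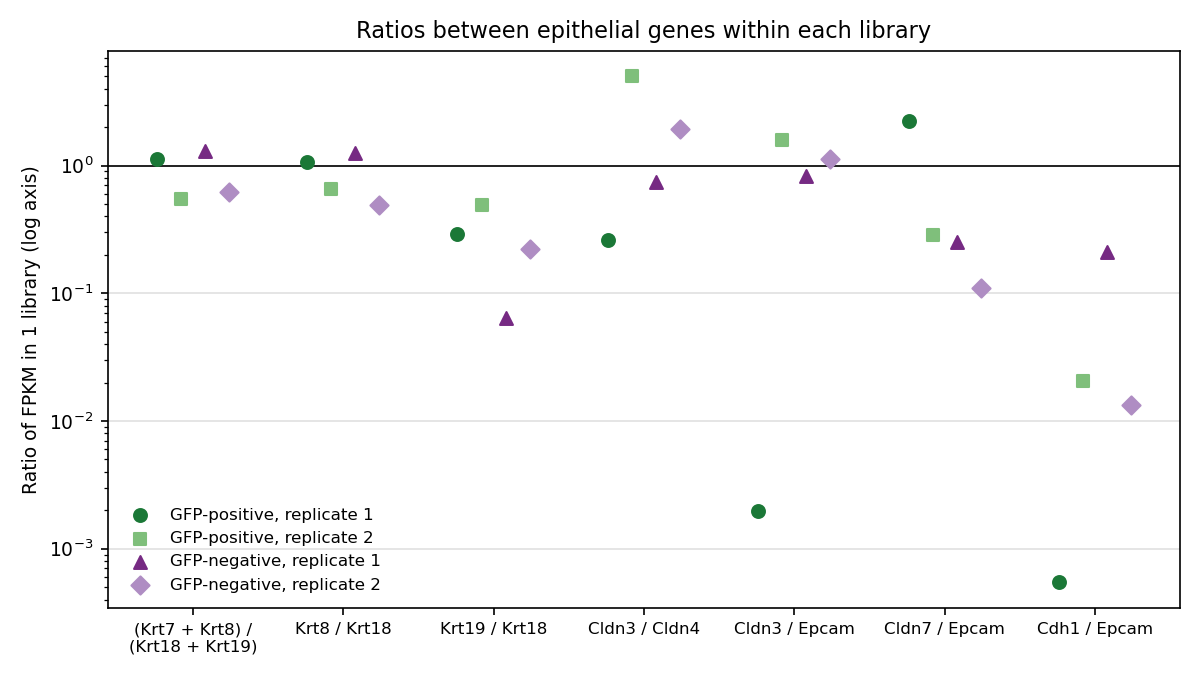
Ratios of FPKM between members within each library, on a log axis with a line at equality, 1 point per library. Keratin partners stayed between 0.488 and 1.30, whereas Cldn3 over Epcam was 0.002 in GFP-positive replicate 1 and 0.833 to 1.58 in the other 3 libraries.

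Other genes of the epithelial programme were read from lists, and 0 of their members passed the test in any of 10 lists. Among 12 catenins and adherens junction plaque genes, 11 had a fitted change above 0 (68.1% of all genes), with a median of 2.09 (0.91 for all genes). Ctnnb1, the gene of beta-catenin, which binds E-cadherin, was measured at 0.56 and 72.1 CPM against 276 and 40.2 CPM, and Nectin2, an adhesion receptor, at 0.11 and 37.5 against 55.7 and 91.6 CPM. In all, 9 of these 12 genes had 0 counts in GFP-positive replicate 1, which had counts for 6063 of all 17746 gene symbols. Without that library the list's median was 1.09, beside 0.29 for all genes. The 22 tight junction plaque and membrane genes had a median of 2.203 with 18 of them at 0 counts in the same library, and 1.22 without it. F11r, the junctional adhesion molecule A, was an exception to those zeros at 548 and 211 CPM against 186 and 65.8 CPM (log2 change -1.60 ± 1.93). Pard6a, a polarity protein, stood at 0 and 11.8 against 10.9 and 57.7 CPM.

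Relatives of the keratins and claudins were also largely at 0 counts in GFP-positive replicate 1, as were most gene symbols. Of 9 other keratin genes 7 had 0 counts in GFP-positive replicate 1, and of 7 other claudin genes 5 had. Their medians were 1.84 and 3.16, and 0.88 and 2.16 without it. Krt15, a keratin of basal cells, had the highest mean FPKM of the former at 0 and 31.2 CPM against 0.93 and 67.2 CPM, and Cldn23 of the latter at 0 and 1.76 CPM against 10.9 and 4.82 CPM. Krt10, a keratin of stratified epithelium, followed at 0 and 15.7 against 11.2 and 35.7 CPM, and Cldn5, the claudin of blood vessels, at 0.11 and 4.09 against 0.48 and 11.2 CPM. The 13 epithelial transcription and splicing regulators had a median of 2.43, and 1.49 without GFP-positive replicate 1. Foxa1 and Elf3, transcription factors of epithelial genes, followed the library order of Cdh1, with 0 and 11.8 against 219 and 8.29 CPM for Foxa1 and 0 and 20.6 against 215 and 12.1 CPM for Elf3.

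Partners of EpCAM and further adhesion genes gave smaller medians. The 11 relatives and partners of EpCAM had a median of 0.89, and 0.71 without GFP-positive replicate 1. Cd9, a tetraspanin that associates with EpCAM, was at 1736 and 549 CPM against 1353 and 445 CPM. Spint2, an inhibitor of membrane proteases, was at 0 and 47.8 CPM against 192 and 63.3 CPM. The 8 other cadherins had a median of 0.69, which turned to -0.32 without GFP-positive replicate 1, where 7 of the 8 had 0 counts. The 7 desmosomal genes had a median of 0.12, and 0.47 without that library. Cdh2, the N-cadherin gene, was at 0 and 7.59 CPM against 37.8 and 5.78 CPM, and Cdh13 at 0 and 12.5 CPM against 88.1 and 34.3 CPM. Of the desmosomal genes Perp stood at 4.02 and 1.27 CPM against 9.82 and 5.89 CPM, and Dsc2, a desmosomal cadherin, at 153 and 1.60 CPM against 33.1 and 0 CPM.

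Genes that oppose the epithelial state were read the same way. Of 8 listed repressors of Cdh1, 5 were in the table, with a median of -0.46 (-0.25 without GFP-positive replicate 1). Snai1 stood at 0 and 5.02 CPM against 0.68 and 0.84 CPM, with a log2 change of -1.72 ± 4.02. Zeb1 stood at 0 and 0.86 CPM against 18.9 and 27.2 CPM, with a log2 change of 5.73 ± 5.38. Snai2 had 0 counts in both GFP-positive libraries against 27.0 and 8.26 CPM, with a log2 change of 13.28 ± 7.26. Both were thus higher in both GFP-negative libraries, as for 25.2% of all genes, and neither passed the test. Zeb1 and Snai2 were the 2 of these 5 genes with a change above 0 (68.1% of all genes). In GFP-negative replicate 1 Cdh1 stood at 111 CPM, beside Zeb1 at 18.9 and Snai2 at 27.0 CPM. In GFP-negative replicate 2 Cdh1 stood at 2.49 CPM, beside Zeb1 at 27.2 and Snai2 at 8.26 CPM. Whether these transcripts came from the same cells, and whether the factors act on Cdh1 here, was not tested. Tcf4, an E-box binding factor of many tissues, stood at 282 and 126 CPM against 121 and 92.9 CPM, and Zeb2 at 0.11 and 17.3 CPM against 3.30 and 9.34 CPM. The 6 mesenchymal genes had a median of -3.46, and -1.57 without GFP-positive replicate 1. Of these 6, 2 had a fitted change above 0 (68.1% of all genes) and 4 below, and 2 had 0 counts in GFP-positive replicate 1. Vim, the filament protein of mesenchymal and blood cells, was at 581 and 124 CPM against 17.0 and 41.5 CPM, and S100a4 at 223 and 62.2 CPM against 9.13 and 19.1 CPM. The groups did not overlap for Vim and S100a4, with both GFP-negative libraries lower, as for 6.63% of all genes, and neither gene passed the test (edgeR adjusted p = 1.0).

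**Figure D4:**
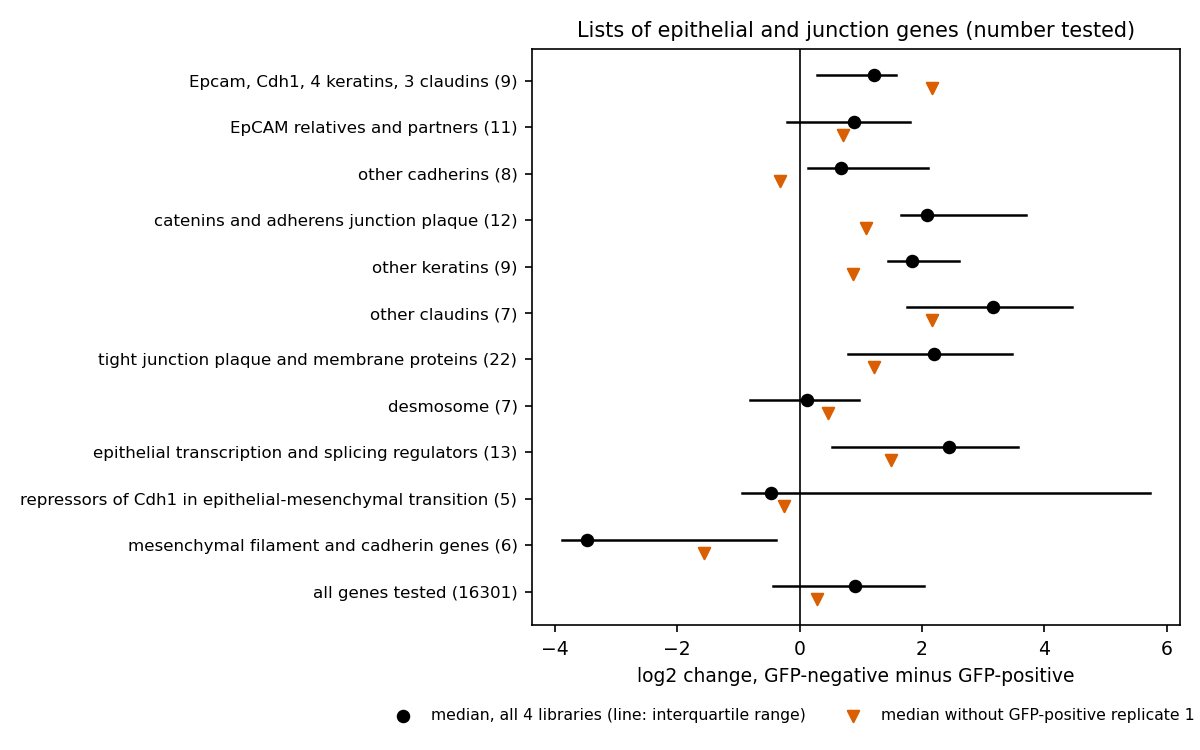
Median fitted log2 change of each list, GFP-negative minus GFP-positive (black, lines span the interquartile range over the list's genes), and the median without GFP-positive replicate 1 (orange), with the number of genes tested in brackets. The 6 mesenchymal genes lay lowest at -3.46 and the 7 other claudins highest at 3.16, beside 0.91 for all genes.

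Markers of other cell types differed between the libraries as well. Summed over 15 macrophage markers, the level was 67757 and 55374 CPM among GFP-positive libraries, against 919 and 20184 CPM among GFP-negative ones. All 15 had a fitted change below 0, where 68.1% of all genes tested lay above 0. Of the 15, 1 (Lyz2) was called, and 0.0982% of all genes tested were called. The library with the lowest macrophage sum, GFP-negative replicate 1, was the one with the highest Epcam, Krt8, Krt18 and Cdh1. Adgre1 and Csf1r, defining macrophage genes, had counts in all 4 libraries, and Ptprc, the CD45 gene of blood cells, in 3. Ptprc had 0 counts in GFP-positive replicate 1, the library with the highest macrophage sum, as did 2 of the 15 markers in all. Summed over 12 neuroendocrine markers, the level was 4339 and 1493 CPM against 5762 and 2477 CPM. The 6 erythroid genes summed to 45562 and 14336 CPM against 1573 and 5395 CPM, with 2 called lower. The 4 hepatocyte genes in the table summed to 27262 and 159 CPM against 23.5 and 319 CPM, with 3 called lower. Their median was -14.50, and -1.38 without GFP-positive replicate 1. The part of these other cells in the epithelial values was not tested.

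Normal lung epithelium also carries EpCAM and keratins, and its markers were present. Summed over 7 airway secretory genes the level was 3952 and 5779 CPM among GFP-positive libraries, against 418 and 8900 CPM among GFP-negative ones. Scgb1a1 stood at 2884 and 1264 CPM against 301 and 529 CPM, a log2 change of -2.32 ± 1.13. Of the 7 genes, 4 had a fitted change above 0 (68.1% of all genes). Bpifa1 was the highest of the 7 in replicate 2 of each group, at 0.11 and 2845 CPM against 17.8 and 5331 CPM. Alveolar type 2 genes summed to 147 and 319 CPM against 113 and 2533 CPM, led by Sftpc at 147 and 192 against 82.4 and 2276 CPM. GFP-negative replicate 1, which had the highest Krt8 and Krt18, had the lowest sum of both lists. Airway basal genes summed to 0.51 and 31.4 CPM against 24.5 and 73.9 CPM, ciliated genes to 127 and 641 against 380 and 493 CPM, and alveolar type 1 genes to 597 and 65.2 against 35.7 and 130 CPM. B and plasma cell genes summed to 1890 and 6701 against 3178 and 21444 CPM, T and NK cell genes to 0 and 116 against 12.1 and 44.9 CPM, endothelial genes to 396 and 20.7 against 106 and 71.8 CPM, and fibroblast genes to 0.16 and 76.6 against 24.2 and 70.03 CPM. Some of these sums rested on few genes. Igkc stood at 1890 CPM in GFP-positive replicate 1, nearly the whole B and plasma cell sum. In that library 7 of those 9 genes had 0 counts. Sftpc gave nearly the whole alveolar type 2 sum there, with 5 of 7 genes at 0 counts. Tppp3, at 127 CPM, gave nearly the whole ciliated sum there, with 4 of 6 genes at 0 counts. In GFP-positive replicate 1, Pecam1 alone stood at 396 CPM, nearly the whole endothelial sum. Of the 6 endothelial genes, 5 had a fitted change above 0 (68.1% of all genes) and Pecam1 lay below it. Cav1 and Pdpn, at 482 and 115 CPM, gave nearly all of the alveolar type 1 sum in GFP-positive replicate 1. The other 4 of those 6 genes had 0 counts there. No gene of these last 9 lists was called.

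Likeness of pattern was measured as the root mean square difference of log2 CPM over the 4 libraries, after centring each gene, against 10193 genes with a mean of at least 5 CPM. Epcam was nearest to C2cd4b (0.17), Fads1 (0.21) and Psip1 (0.22), and Krt18 ranked 23. From the side of Krt18, Epcam ranked 6 and Krt8 23. Krt8 was nearest to Scap (0.19), with Krt18 at rank 12. Cldn4 was the member nearest to Cdh1, at rank 141. With 4 libraries many genes share any given order, so these ranks describe the libraries.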

How the data were processed

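RNA from 4 libraries of sorted mouse tumour cells, 2 per group, was sequenced after SMARTer cDNA synthesis and PCR amplification, per the labels' protocols. The chemistry marks no strand and no molecules, so intervals from counts alone would be too narrow. Whole-number counts and FPKM per gene symbol were deposited by the authors, as the file headers name them. The submitters' processing notes list cutadapt 1.9, HISAT2 2.2.1, StringTie 2.1.6, DESeq2, edgeR and mm10; the counting program is not given in the sources used here. For every member the authors' FPKM matched the count over the GENCODE M21 exon union and a total 1.12 to 1.17 times the table's sum, depending on the library, with no TMM factor.

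Counts were fitted in R 4.3.3 with edgeR 4.0.16 (filterByExpr, minimum count 10; TMM factors 0.722, 0.944, 1.54 and 0.956; group only; Benjamini-Hochberg, threshold 0.05). The SE is the absolute log2 change over the square root of F. A 2 against 2 exact permutation test cannot go below p = 0.333 and was not used. Alternatives were a replicate block, other filters and scalings, DESeq2 1.42.0, limma 3.58.1 on log2 FPKM (pseudocounts 0.1, 1 and 5) and leaving out each library. Overlap on other scales or without a library, the coding length of Krt7 and medians less that of all genes were added after seeing the data. In simulated counts for this comparison (dispersion 0.1), the 4-fold changes of 161 of 200 genes and the 16-fold changes of all 200 were recovered. The common biological coefficient of variation of the data, which is the square root of the dispersion, was 1.92, a far wider spread. The simulation also drew all libraries from shared gene means, without the many zeros of GFP-positive replicate 1. Its recovery therefore does not describe what could be detected in these data.

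Members and lists were chosen with earlier results of these data known. All members were named, each list gave its called genes or else the 2 with the highest mean FPKM, each marker list its highest gene, and likeness up to 3 genes per member; not all are printed. Zeb1, Zeb2, Snai1, Adgre1, Csf1r, Ptprc, Bpifa1 and Tppp3 were named after their values were seen. Krt8-ps, a pseudogene 98.6% identical to Krt8 over 941 bases, had 0.284% to 0.459% of the counts of Krt8. Krt7, Krt8 and Cldn3 each overlap a gene on the opposite strand that was not analysed here. The sequences of the reporter were not used here.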

Additional observations from a re-analysis of the deposited data

How the results depend on the processing

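Of 126 values of single members under 14 alternatives, 111 kept both direction and side of the threshold, 12 turned direction and 3 passed the threshold, all 3 without GFP-positive replicate 2. Upper quartile scaling gave log2 changes of -5.15 for Epcam, -6.46 for Krt7, -5.47 for Krt8 and -5.37 for Krt18, a median of -5.37 for the members and 0 calls in the table; it scales by a quartile that was 10 counts in GFP-positive replicate 1 and 1993 to 4131 in the others. Krt19 turned to 0.15 with library totals and with limma on FPKM at pseudocounts of 0.1 and 1, and to 0.14 at 5. Leaving out 1 library gave -3.56 to 0.98 for Cldn7, -0.77 to 0.0039 for Krt19, -0.51 to 2.198 for Krt7 and -0.59 to 2.84 for Krt8. It gave a members' median of 0.20 to 2.17, 0 to 3 members called and 1 to 7601 genes called in the table, against 16. DESeq2 called 25 genes, limma at a pseudocount of 0.1 called 42, and genes with counts in all 4 libraries gave 5; the cause was not tested. The number of members whose groups did not overlap was 1 on TMM-scaled CPM, 3 on FPKM and on library totals, and 2 to 7 with 1 library left out. The labels number the libraries of both groups 1 and 2; deviations of same-numbered libraries from their group means correlated at -0.073, so nothing shows pairing. With the replicate block, 0 members and 21 genes were called and the members' median was 1.16, beside 3.92 for all genes.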
